A study of Sus scrofa with 95 samples.

Results

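The genes described here are marker genes of the alveolar type 1 cell, followed in the lungs of young pigs after cardiopulmonary bypass (CPB). They were chosen by name, with earlier results of these data known. Of 10 symbols asked for, 8 (AGER, RTKN2, AQP5, CLIC5, PDPN, EMP2, GPRC5A and CAV1) were found among the 35670 genes of the count table. HOPX and SCNN1D did not occur as symbols in the table and were not analysed here. Messenger RNA was sequenced from 5 organs of 19 infant pigs, with 1 library per animal and organ. The 8 control animals had anesthesia alone. The 7 CPB animals had bypass with deep hypothermic circulatory arrest, in which the cooled circulation was stopped for 75 min, and received no drug. The other 4 animals had the same bypass and arrest and were given 75 mg of linrodostat, an inhibitor of the tryptophan-degrading enzyme IDO1. No group analysed here received linrodostat without bypass. The lung sample was whole tissue of the right lower lobe, frozen after passive drainage of its blood, so that fewer cells of a type and less RNA per cell cannot be told apart.

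Alveolar type 1 cells are the thin, flat cells that cover most of the gas exchange surface of the lung. They lie on a basement membrane shared with the capillary endothelium, let gas and water pass, and are renewed from the surfactant-making alveolar type 2 cells. They are known as an early target of lung injury, and the soluble form of the receptor encoded by AGER is used in patients as a sign of damage to them.

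Levels are given as CPM, a gene's counts scaled to the library's total, with the TMM factor that corrects for differences in RNA composition. A difference between arms is a log2 fold change ± its standard error, and p-values are Benjamini-Hochberg adjusted over all genes tested unless said otherwise, with edgeR's quasi-likelihood test at a threshold of 0.05. The 19 lung libraries held 30057048 to 53627723 counts. The thinnest measurement of a member in lung rested on 668 counts (RTKN2) and the richest on 107506 (AGER). The lung libraries of control 15 and of CPB 19 lay farthest out on the second principal component (11.7% of the variance). Where the members' calls between lung arms change without them, this is marked. In the lung libraries of control 1 and CPB 25 the 10 most abundant genes held 27% and 24.5% of the counts, against 4.6% to 6.49% in the other 17, and CPB 25 also lay farthest out on the first component (17.9% of the variance). The comparisons between lung arms were therefore also computed without these 2 libraries. Tests of lung against other organs, correlations and ratios to AGER were not computed without both. The summed level of 10 airway epithelial markers differed widely between lung pieces. It ran from 119 to 2930 CPM in controls, from 186 to 4860 in CPB and from 390 to 1800 in linrodostat lungs. The genes varied unequally over the 19 lungs. SCGB1A1 ran from 0.622 to 4250 CPM and SCGB3A2 from 8.14 to 272, but FOXJ1 from 45 to 151 and TPPP3 from 52.4 to 155.

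Most members marked lung in these animals. CLIC5, however, was higher in control heart than in control lung, and the lung and heart ranges of CAV1 overlapped. In control animals all 8 were higher in lung than in the mean of heart, ileum, kidney and liver, in a comparison in which 62.7% of the 18305 genes tested passed and 32.3% were higher. AGER, the receptor for advanced glycation end products, stood out most, with a log2 difference of 10.96 ± 0.31 (adjusted p = 7.76e-28). AQP5, a water channel, differed by 9.19 ± 0.31, GPRC5A by 7.13 ± 0.30 and RTKN2 by 5.93 ± 0.23. PDPN (3.66 ± 0.19), CAV1 (3.09 ± 0.27), EMP2 (2.94 ± 0.20) and CLIC5 (1.60 ± 0.16) differed less. All 8 also passed when heart, whose libraries bear another batch label, was left out. As a check of the labelled tissue, all 11 alveolar type 2 genes tested were also higher in lung, among them the surfactant gene SFTPC, which had a median of 2800 CPM over the 19 lungs. Of 20 further alveolar type 1 genes, 16 were higher in lung and 3 were lower.

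On one scale for all 95 libraries, AGER ran from 804 to 1490 CPM in the 19 lungs and reached at most 2.59 CPM in the 76 libraries of other organs. AQP5 ran from 35.3 to 96.9 CPM in lung, was at most 3.13 CPM elsewhere and had 0 counts in 25 of the 76 other libraries. RTKN2 ran from 13.9 to 89.5 CPM in lung and was at most 3.36 CPM elsewhere. EMP2 ran from 220 to 492 CPM in lung against at most 213 CPM elsewhere. For these 4 genes no library of another organ reached the lowest lung.

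For the other 4 members some libraries of other organs reached the lowest lung: 25 of 76 for CLIC5, 19 for CAV1, 4 for GPRC5A and 1 for PDPN. For GPRC5A and PDPN these all came from bypassed animals, and no control library of another organ reached the lowest lung. Each of the 4 was higher in control lung than the log2 mean of the other control organs. CLIC5 was higher in control heart (406 ± 107 CPM, SD, n = 8) than in control lung (176 ± 36.4), followed by ileum (91.8 ± 44.2), kidney (51.1 ± 11.2) and liver (5.94 ± 1.73). Heart and liver did not overlap with their neighbours in that order, while the ranges of lung, ileum and kidney overlapped in turn. CAV1, the coat protein of caveolae, which endothelium and muscle also make, stood at 68.7 ± 15.7 CPM in control lung and 54.2 ± 21.8 in control heart. These ranges overlapped (44.5 to 87.3 and 37.9 to 105), whereas ileum (at most 16.7), kidney (8.14) and liver (3.78) lay below both. PDPN, or podoplanin, which lymphatic endothelium also makes, averaged 104 ± 17.6 CPM in control lung. It was lower in control heart (17.3 ± 4.75), ileum (13.5 ± 2.65), kidney (8.63 ± 4.78) and liver (2.20 ± 1.08). Lung stood alone in that order, and the ranges of each pair of neighbours from heart down to liver overlapped. GPRC5A averaged 148 ± 30.6 CPM in control lung, and far less in control ileum (8.78 ± 8.45), kidney (3.72 ± 1.64), liver (0.195 ± 0.149) and heart (0.176 ± 0.228). Ileum and kidney overlapped, as did liver and heart.

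**Figure D1:**
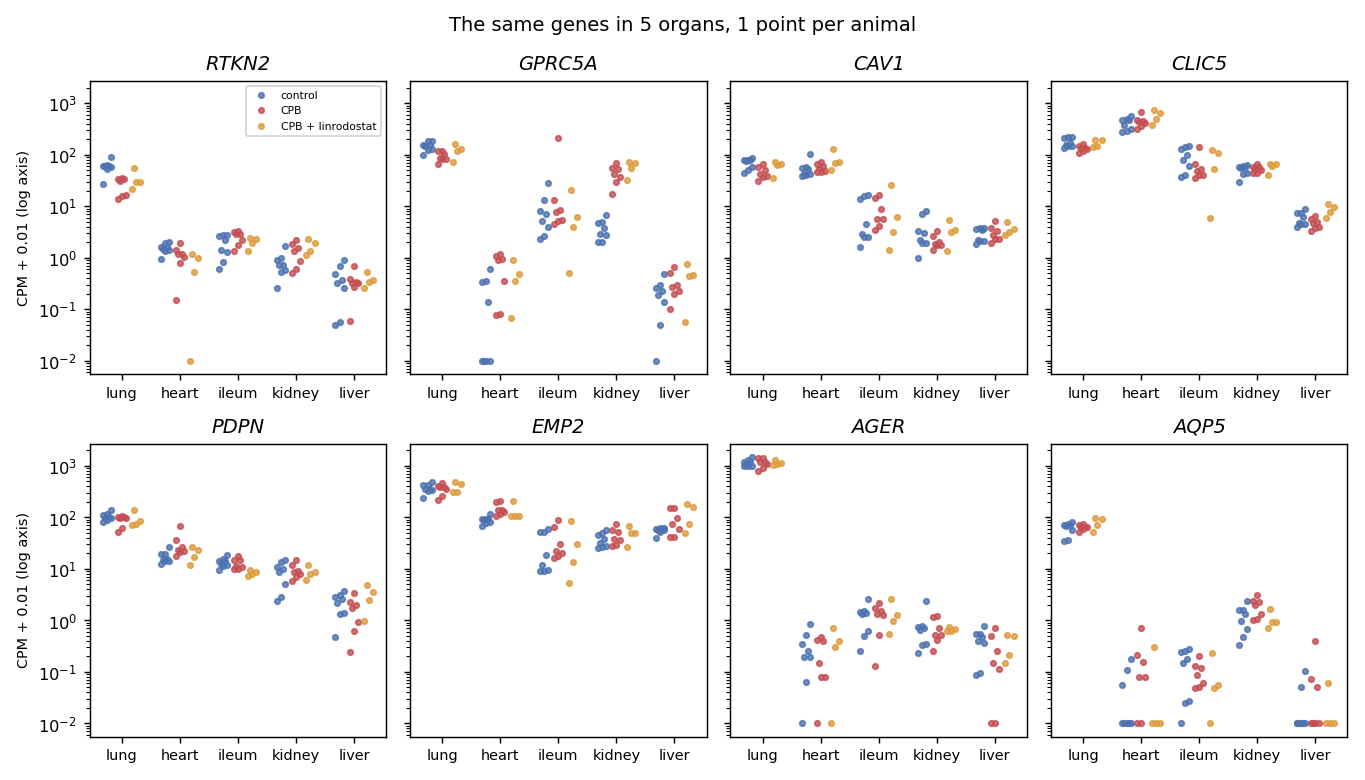
Level of each of the 8 members (panels) in the 5 organs, as CPM + 0.01 on a log axis, with 1 point per animal coloured by arm. AGER, AQP5, RTKN2 and EMP2 in all 19 lungs lie above every library of the other organs, CLIC5 is highest in heart, and GPRC5A in kidney is higher in both bypass arms than in controls.

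The main question was whether bypass with arrest changed these genes in lung relative to anesthesia alone. Of the 8 members 2 fell, RTKN2 and GPRC5A, 0 rose, and 6 did not pass the test. Without control 1 and CPB 25, the libraries dominated by few genes, 0 of the 8 passed: RTKN2 stood at −1.13 ± 0.28 (unadjusted p = 0.000819, adjusted p = 0.0622) and GPRC5A at −0.65 ± 0.19 (unadjusted p = 0.00286, adjusted p = 0.0966). The share of all genes that passed went down as well, to 1.07% (189 genes, and 2982 at an unadjusted p under 0.05). With all libraries, across all 17849 genes tested in lung, 4.71% passed, 2.08% higher and 2.62% lower. The members' log2 fold changes ran from −1.20 to 0.06 with a median of −0.31, beside a median of 0.01 over all genes. For none of the 8 members did the CPB and control ranges separate fully, which they did, with CPB lower, in 0.375% of the genes tested.

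RTKN2 showed the strongest change. It encodes rhotekin 2, an intracellular signalling protein (ENSSSCG00000039707, chromosome 14, 65686718 to 65861385; these and the positions below are RefSeq's on Sscrofa11.1). The lowest, median and highest control lungs held 40, 87.0 and 130 CPM, and the CPB lungs 20.1, 44.5 and 51.8 CPM. Of the 8 controls, 7 lay above every CPB lung, and control 15, at 40 CPM, lay among them. The CPB lungs were split, with 3 between 20.1 and 24.4 CPM and 4 between 44.5 and 51.8. The mean went from 85.5 ± 24.5 CPM (SD, n = 8) to 37.2 ± 14.2 (n = 7), and RTKN2 fell with a log2 fold change of −1.20 ± 0.26 (adjusted p = 0.0142, and 0.0622 without control 1 and CPB 25, which held 84.0 and 24.4 CPM). Per 1000 units of AGER in the same library it went from 51.4 ± 13.1 to 22.4 ± 8.09. T and B lymphocyte markers were also lower on average in CPB lungs: 8 of 8 had a fold change below 0, and 1 fell (CD79A, a B cell receptor chain, −0.74 ± 0.20). Their summed level ran from 218 to 836 CPM in controls and from 129 to 319 in CPB lungs. The highest sum, 836 CPM, was that of control 15, the control with the least RTKN2. The part of lymphocytes in the RTKN2 result was not tested. The RefSeq annotation places a transcribed pseudogene (LOC102161120) and a microRNA gene within the span of RTKN2, and how reads were shared among them is not given in the sources used here.

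GPRC5A, an orphan G protein-coupled receptor induced by retinoic acid (ENSSSCG00000029592, chromosome 5, 59565793 to 59586641), was the other member that fell. Control lungs ranged from 143 to 271 CPM with a median of 218, and CPB lungs from 93.5 to 168 CPM with a median of 125. Only control 4 of the 8 controls lay within the CPB range. The mean went from 213 ± 44.1 to 134 ± 27.3 CPM, a log2 fold change of −0.67 ± 0.17 (adjusted p = 0.0286). The call ended without CPB 2 (−0.59, adjusted p = 0.0572), without CPB 25 (−0.65, 0.0646) and without both control 15 and CPB 19 (−0.67, 0.0518). RTKN2 passed in each of these 3 fits. Airway epithelium also makes GPRC5A, and its markers, given above, had a median summed level of 1050 CPM in controls and 929 in CPB lungs. SCGB1A1 alone averaged 819 ± 860 CPM in controls and 881 ± 1520 in CPB lungs. Gene by gene, 2 of the 10 airway markers lay below 0, with a median log2 fold change of 0.145. Their part in the result was not tested.

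CAV1 and CLIC5 were also lower on average and did not pass. CAV1 (ENSSSCG00000016634, chromosome 18, 29648120 to 29682451) had 64.3, 111 and 127 CPM as lowest, median and highest control values and 45.2, 60.6 and 94.8 CPM in CPB lungs, a difference of −0.57 ± 0.19 (adjusted p = 0.0782). Of the controls 5 lay above every CPB lung and 4 CPB lungs lay below every control. CLIC5, a chloride intracellular channel protein tied to the actin cortex (ENSSSCG00000037416, chromosome 7, 40683044 to 40808017), ran from 196 to 326 CPM in controls and from 158 to 240 in CPB lungs, a difference of −0.38 ± 0.13 (adjusted p = 0.0893). DESeq2 on the same counts called both (adjusted p = 0.0303 and 0.0422), for 4 lower members in all, and CAV1 passed without CPB 6 (−0.68, adjusted p = 0.0331). Endothelium, which also makes CAV1, showed mixed values: of 16 markers 3 fell (KDR, EDNRB and EMCN), 1 rose (PECAM1) and 12 did not pass, and their summed level was 3930 to 6520 CPM in controls and 4180 to 6150 in CPB lungs. No endothelial marker was at 0 in any lung, and the part of endothelium in the CAV1 and CLIC5 values was not tested.

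PDPN, a mucin-like membrane glycoprotein (ENSSSCG00000003451, chromosome 6, 73019063 to 73050000), did not pass either (−0.23 ± 0.17, adjusted p = 0.44). Controls lay between 121 and 198 CPM, and 5 of the 7 CPB lungs between 138 and 152. The other two, CPB 25 (76.5 CPM) and CPB 2 (88.4 CPM), lay below every control. CPB 25 is the library named above for the share of its 10 most abundant genes, and without it the PDPN difference was −0.14. CPB 25 also had the lowest CPB values of AGER, CAV1 and CLIC5. Both animals also had among the 3 lowest CPB values of RTKN2.

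AGER, AQP5 and EMP2 had the log2 fold changes nearest to 0. AGER (ENSSSCG00000001437, chromosome 7, 24218116 to 24221162) had 1420, 1610 and 2130 CPM as lowest, median and highest control values and 1170, 1720 and 2090 CPM in CPB lungs. Its log2 fold change was 0.01 ± 0.13, with a 95% interval from −0.26 to 0.28. AQP5 (ENSSSCG00000000211, chromosome 5, 15876527 to 15879608) ran from 51.3 to 119 CPM in controls and from 73.6 to 108 in CPB lungs, with a log2 fold change of 0.06 ± 0.17 (interval −0.30 to 0.42). EMP2, a tetraspan membrane protein of the epithelial surface (ENSSSCG00000037065, chromosome 3, 32449496 to 32493245), ran from 338 to 712 CPM in controls and from 316 to 671 in CPB lungs, with −0.06 ± 0.17 (interval −0.41 to 0.29). For these 3 genes the CPB range lay within the control range or passed it at 1 end by at most 2 lungs.

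**Figure D2:**
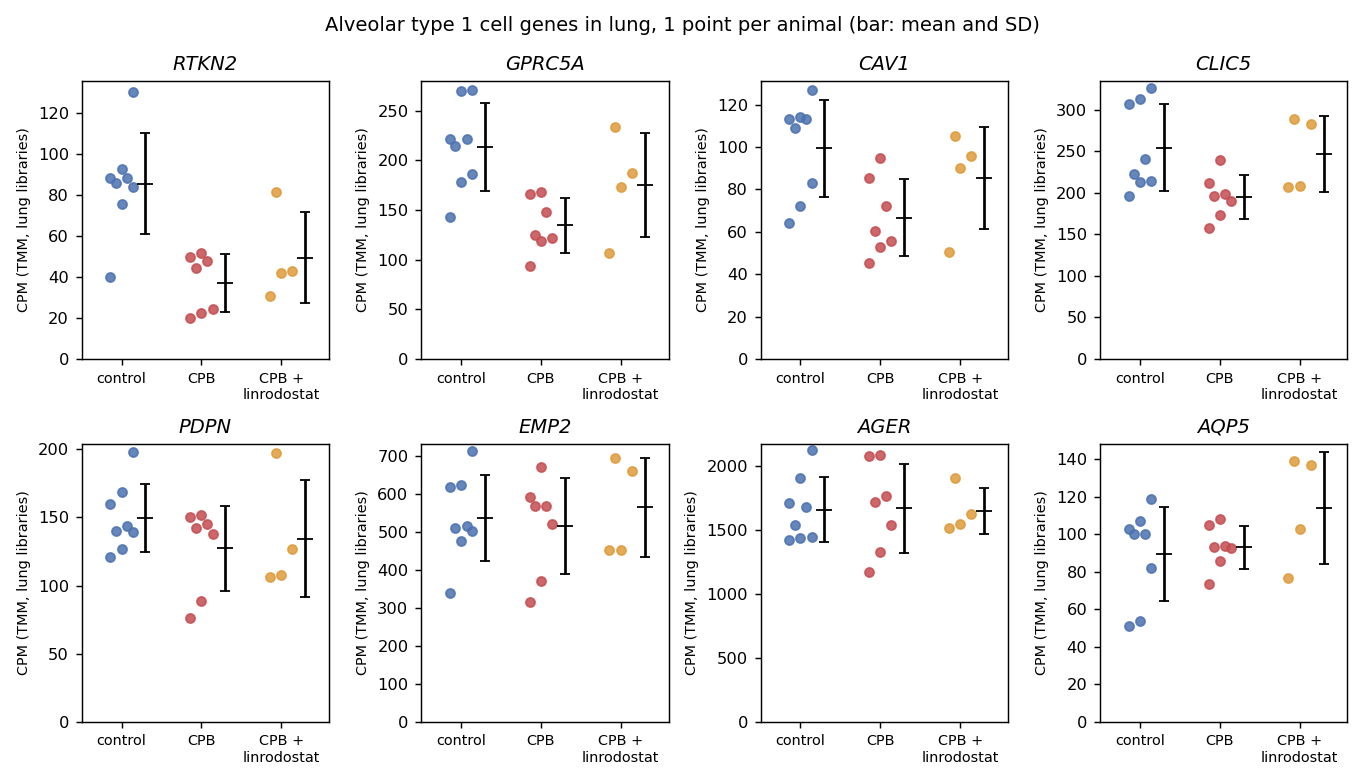
Level of each member in lung in CPM (linear axis from 0), 1 point per animal, for 8 control, 7 CPB and 4 linrodostat animals, with the mean and SD as bars. RTKN2 and GPRC5A are lower in CPB lungs with little overlap, while AGER, AQP5 and EMP2 cover similar ranges in all arms.

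The next question was whether linrodostat altered these levels in bypassed animals. Against CPB alone, 0 of the 8 members passed, as did 0 of the 17849 genes tested by edgeR (percent called 0), while DESeq2 called 3 genes, none of them a member. At an unadjusted p under 0.05 there were 462 genes, among them 1 member, CLIC5. The members' differences were above 0 in 7 of 8 cases, with a median of 0.31 beside −0.01 over all genes. The CPB lungs are the same as in the comparison with controls, so these differences are not independent of those. A member that lay low in the CPB lungs tends to lie above 0 here. CLIC5 measured 207, 208, 283 and 289 CPM in the 4 linrodostat lungs, and differed from CPB by 0.34 ± 0.15 (unadjusted p = 0.0412, adjusted p = 1). The first 2 values lie within the CPB range and the last 2 above it. The lower pair came from females and the higher pair from males. In control lungs CLIC5 also averaged less in females (212 CPM) than in males (297 CPM). GPRC5A measured 107, 173, 187 and 234 CPM, so that 3 of 4 lay above every CPB lung (0.38 ± 0.20, unadjusted p = 0.0642). CAV1 measured 50.4, 90.1, 95.8 and 105 CPM (0.35 ± 0.22). RTKN2 measured 30.9, 41.7, 43.0 and 81.5 CPM, and only linrodostat 24 lay above the CPB range (0.41 ± 0.30, interval −0.23 to 1.04). AGER measured 1520, 1550, 1630 and 1910 CPM and differed from CPB by −0.02 ± 0.16. For AQP5 the values were 76.9, 103, 137 and 139 CPM (0.29 ± 0.21), for EMP2 451, 452, 660 and 694 CPM (0.13 ± 0.20) and for PDPN 106, 108, 127 and 197 CPM (0.08 ± 0.20). With 4 animals these intervals are wide, and neither a return to the control level nor its absence was shown for any member.

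Against the same controls, the linrodostat lungs had 0 of 8 members past the threshold, in a comparison in which 2.35% of all genes passed. This comparison shares its controls with the first one, so its values are set beside those and not counted again. RTKN2 stood at −0.79 ± 0.31 (unadjusted p = 0.0189, adjusted p = 0.185) against −1.20 in CPB alone. GPRC5A stood at −0.28 ± 0.20 against −0.67, CAV1 at −0.22 ± 0.22 against −0.57, and CLIC5 at −0.04 ± 0.15 against −0.38. AQP5 was the highest of the members, at 0.35 ± 0.20 (adjusted p = 0.384).

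**Figure D3:**
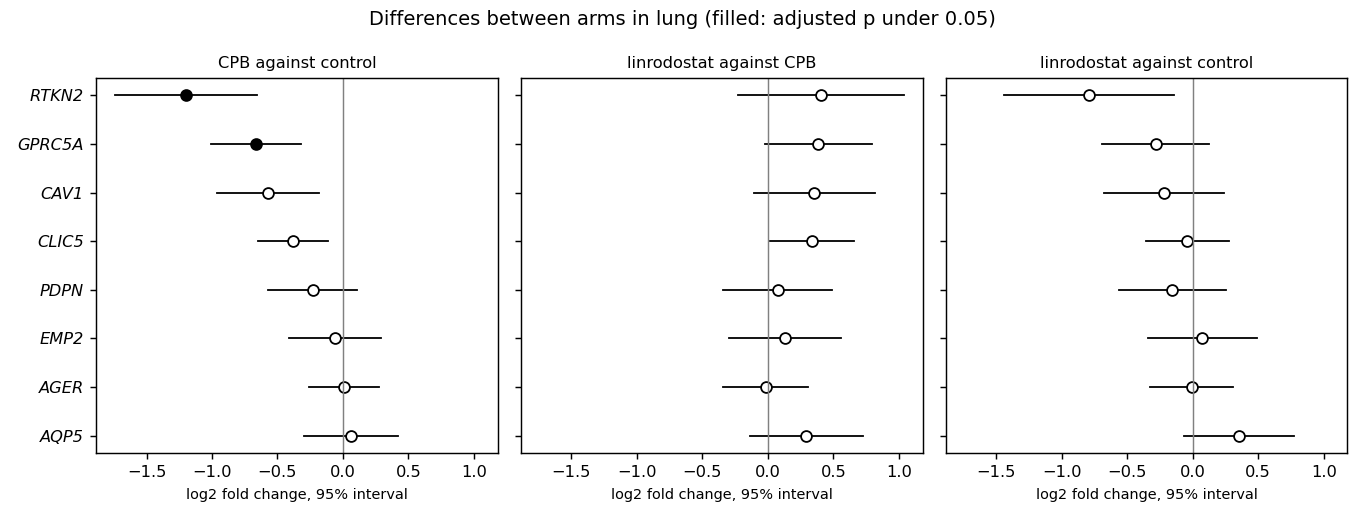
Log2 fold change of each member (rows) in the 3 lung comparisons (panels), with 95% intervals from edgeR; filled points passed at an adjusted p under 0.05. Only RTKN2 and GPRC5A in CPB against control are filled, and in linrodostat against CPB all points but AGER lie above 0. CPB against control and linrodostat against CPB share the CPB lungs.

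The other genes of alveolar epithelium included none that passed as lower in CPB lungs. Of the list genes called in CPB against control, only KDR, EDNRB, TIMD4 and SIGLEC1 also passed without control 1 and CPB 25. Of 20 further alveolar type 1 genes tested, 1 rose, 0 fell and 19 did not pass after bypass, with a median log2 fold change of 0.06. The gene that rose was TIMP3, an inhibitor of matrix proteases that other lung cells also make, at 0.83 ± 0.19 (adjusted p = 0.0198, and 0.0643 without control 1 and CPB 25), from 1200 ± 260 to 2140 ± 773 CPM. It was higher in linrodostat lungs too (2630 ± 707 CPM, 1.13 ± 0.22 against control, adjusted p = 0.0113). Of 9 transcription regulators of alveolar epithelium 0 passed, and the smallest p-values belonged to CEBPA (−0.44 ± 0.14, adjusted p = 0.0741) and to WWTR1 (0.33 ± 0.14). Of 11 alveolar type 2 genes 0 passed, with a median of −0.07. SFTPC averaged 2560 ± 362 CPM in controls and 3620 ± 1420 in CPB lungs (0.50 ± 0.18, adjusted p = 0.107). Of 13 genes that mark cells passing from type 2 to type 1, 0 passed and 2 lay below 0, and the epithelial cell cycle regulator SFN had the smallest p (0.73 ± 0.25, adjusted p = 0.0917).

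Genes that work with individual members were looked at in the same way. Among 13 sodium and water transport genes, by which the alveolar wall clears fluid, 0 passed in CPB against control and 11 lay above 0, led by the sodium pump subunit ATP1B1 (0.53 ± 0.17, adjusted p = 0.0735). Of 9 caveolar genes 0 passed and 8 lay below 0, CAV1 among them, with a median of −0.14, and the exception was PACSIN2 (0.37 ± 0.12, adjusted p = 0.0666). Of 9 genes for ligands of the AGER receptor 5 were tested, and 1 rose: S100A8, a neutrophil calcium-binding protein, by 1.71 ± 0.37 (adjusted p = 0.0144, and 0.0641 without control 1 and CPB 25), from 12.0 ± 6.03 to 39.3 ± 21.3 CPM. Of 6 neutrophil markers, 2 were higher in CPB lungs (S100A8 and the collagenase MMP8). Their summed level was 149 to 298 CPM in controls and 231 to 414 in CPB lungs.

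Markers of other cells gave the following values beside the members. Of 10 airway genes 1 rose, the secreted iron-binding protein LTF (1.98 ± 0.49, adjusted p = 0.0297), which neutrophils also make. Of 10 macrophage markers 7 fell and 0 rose, led by TIMD4 (−1.37 ± 0.20, adjusted p = 0.00139) and SIGLEC1 (−1.35 ± 0.24, adjusted p = 0.00576), both surface receptors of resident macrophages, and the number was 2 without control 1 and CPB 25. Their summed level was 7830 to 13700 CPM in controls and 3860 to 8140 in CPB lungs. Of 6 lymphatic genes, 3 mesothelial genes and 11 genes of fibroblasts and smooth muscle, 0 passed. Lymphatic markers, relevant to PDPN, summed to 213 to 394 CPM in controls and 266 to 440 in CPB lungs. The mesothelial marker CALB2 had 0 counts in 18 of the 19 lungs. The part of these cells in the members' values was not tested.

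**Figure D4:**
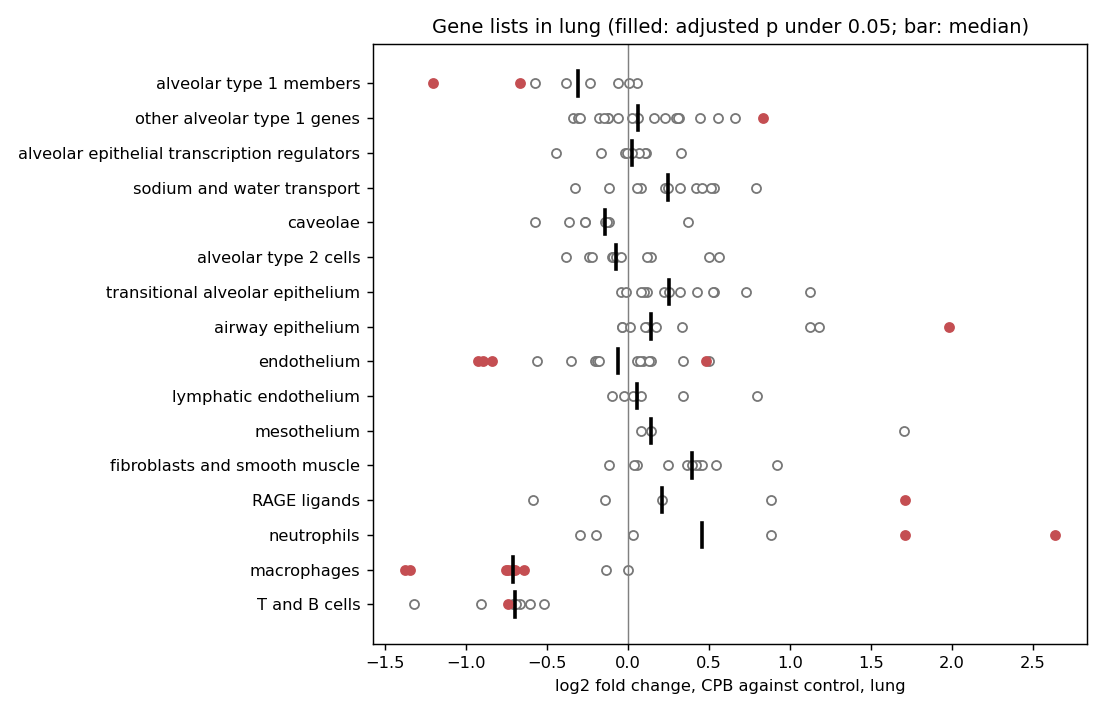
Log2 fold change in lung, CPB against control, of every tested gene (points) in 16 gene lists (rows); filled points passed at an adjusted p under 0.05 and the bar is the list's median. The 8 members have a median of −0.31, while the 20 further alveolar type 1 genes have a median of 0.06.

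Within an arm, the members did not vary as 1 unit. After the mean of each arm was removed, the 28 pairs of members had Pearson correlations from −0.49 to 0.67 over the 19 lungs, with a median of 0.28. These are descriptions, since all values of a lung share its library. AQP5 and GPRC5A went together (0.67), as did EMP2 and CAV1 (0.62), AGER and PDPN (0.61) and CLIC5 and CAV1 (0.59). GPRC5A ran against EMP2 (−0.49), CAV1 (−0.43) and CLIC5 (−0.39). Among 11056 other named genes with a mean of at least 5 CPM, those closest to the mean of the members were CDKL1 (0.89), SAMD12 (0.86), APLP2 (0.84), MPPED2 (0.83) and CADM1 (0.83). Those closest to AGER alone were BCAM (0.91), a laminin receptor of basement membranes, RPS6KA5 (0.86), LTBP3 (0.85), FGD1 (0.85) and POMT1 (0.85).

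The levels by organ led to a further comparison, chosen after they were seen: the effect of bypass on the members in the other organs. In kidney, where alveolar cells do not occur, GPRC5A rose in bypassed animals. Control kidneys held between 1.98 and 6.73 CPM with a median of 3.32, CPB kidneys between 17.1 and 70.6 with a median of 42.6, and the linrodostat kidneys 32.7, 54.3, 69.3 and 71.8 CPM. All kidneys of both bypass arms lay above every control kidney, which was the case for 1.83% of genes in CPB and 4.53% in linrodostat kidneys. The rise was 3.60 ± 0.32 in CPB (adjusted p = 1.36e-06, rank 7 of 17653 genes by p) and 3.97 ± 0.34 in linrodostat animals against control (adjusted p = 1.12e-06). The arms with and without linrodostat differed by 0.37 ± 0.35 (interval −0.36 to 1.10). GPRC5A was the only 1 of 8 members called in kidney, where 21.1% of genes passed in CPB (11.3% higher) and 20.0% in linrodostat kidneys, each against control.

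**Figure D5:**
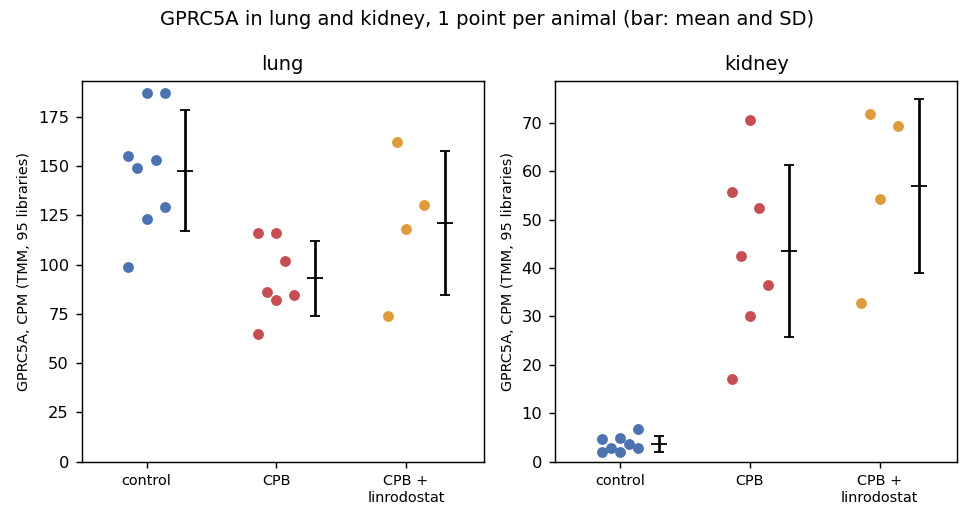
GPRC5A in lung (left) and kidney (right) in CPM on the scale of all 95 libraries (linear axes from 0, different ranges), 1 point per animal with the mean and SD as bars. Lung averages fall from 148 in controls to 93.1 in CPB animals, while kidney averages rise from 3.72 to 43.6.

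The effect of CPB on GPRC5A differed between lung and kidney by −4.22 ± 0.76 on the log2 scale (interaction term over all 95 libraries, adjusted p = 0.000443), and 1.22% of 20321 genes passed this test, 0.428% with the lower effect in lung. The effect of CPB on RTKN2 differed between the same organs by −1.87 ± 0.49 (adjusted p = 0.0325), and did not pass with limma-voom (adjusted p = 0.0618) or without any 1 of 10 of the animals (adjusted p up to 0.0882). In kidney RTKN2 did not pass (0.71 ± 0.37, adjusted p = 0.176), at no more than 2.35 CPM in any kidney. In all, 2 of 32 such tests (8 members against 4 organs) passed, beside 1.42% of genes against heart, 0.261% against ileum and 3.91% against liver.

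In heart, 2 of 6 members tested rose and 0 fell, where 11.9% of genes passed and 6.39% were higher. EMP2 averaged 90.5 ± 14.8 CPM in control and 149 ± 39.5 in CPB hearts, a rise of 0.75 ± 0.17 (adjusted p = 0.00637). Control hearts lay between 67.7 and 118 CPM and CPB hearts between 108 and 210, so that only control 1 lay within the CPB range. PDPN averaged 17.3 ± 4.75 and 31.1 ± 17.7 CPM, a rise of 0.89 ± 0.26 (adjusted p = 0.0281), and CPB 19 carried the highest value (69.1 CPM). Without CPB 19 the difference was 0.55 (adjusted p = 0.0843), and the call also ended without control 7, 15 or 26 or CPB 2. CLIC5 (0.19 ± 0.18) and CAV1 (0.10 ± 0.20), both abundant in heart, did not pass. The effects of CPB on EMP2 and PDPN in lung and heart were not shown to differ (−0.78 ± 0.50, adjusted p = 0.573, and −1.08 ± 0.42, adjusted p = 0.221).

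In ileum 0 of 8 members and 0% of genes passed in CPB against control, and in liver 0 of 7 members where 26.9% of genes passed. In linrodostat animals against control, 0 of 6 members passed in heart (2.04% of genes), 0 of 8 in ileum (0.213%) and 1 of 7 in liver (21.8%). That member was EMP2, which lay between 39.8 and 63.1 CPM in control livers, between 40.9 and 156 in CPB livers, and at 49.5, 74.8, 157 and 184 CPM in linrodostat livers. The ranges overlapped, and EMP2 rose by 1.06 ± 0.34 in linrodostat livers (adjusted p = 0.0336), beside 0.70 ± 0.30 in CPB livers (adjusted p = 0.0892). The linrodostat call ended without control 4 (adjusted p = 0.0519), linrodostat 12 (0.116) or linrodostat 24 (0.181), with limma-voom (0.0843) and with no filter on low counts (0.0864). The CPB difference passed without CPB 6 (0.0447) or CPB 25 (0.0463). The ileum of CPB 19 held 211 CPM of GPRC5A, and no other CPB ileum held more than 13.4. The ileal difference of GPRC5A was 2.02 ± 0.91 with that library and −0.23 without it.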

How the data were processed

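The authors deposited 1 table of expected counts (estimated read counts per Ensembl gene, unscaled) for 95 libraries. Per the labels, poly(A) RNA was sequenced as read pairs. Per the submitters' processing notes, the build was Sscrofa11.1 and the tools were STAR, Salmon, Trim Galore, cutadapt, bcl2fastq and MultiQC; versions, the counting program and strand setting are not given in the sources used here. Counts were rounded to whole numbers. Positions are RefSeq's for Sscrofa11.1, matched by symbol for 8 of 8 members.

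The 19 lung libraries (and, apart, the 40 control libraries) were fitted in R 4.3.3 with edgeR 4.0.16 (filterByExpr, TMM, robust glmQLFit, quasi-likelihood F tests, 2-sided). Alternatives used DESeq2 1.42.0, limma 3.58.1 (voom), RLE size factors, a fit of just the 2 arms compared, no filter, a sex term, no heart and each animal left out. The procedure was tested on simulated data. Same-numbered libraries come from 1 animal: after arm means were removed, control lung correlated with the same animal's other organs at medians of 0.227 to 0.244.

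Members and lists were chosen with earlier results of these data known. Named were all members and, per list, up to 4 passing genes with the smallest p in CPB against control (or up to 2 where none passed). Comparisons in other organs, fits by sex and the fits without control 15 and CPB 19 and without control 1 and CPB 25 were added after the data were seen. All lung libraries bear the same batch label, and all heart libraries another. In the sodium and water transport list, linrodostat against control is not reported here. The symbol VWF in the endothelial list differs from the ID table. Within 1 organ, p-values measure the spread between animals. In the main fits across organs the libraries of 1 animal were treated as independent, so those p-values mix spread within and between animals.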

Additional observations from a re-analysis of the deposited data

Results flagged for a closer look

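The effect of bypass on GPRC5A differed between lung and kidney, and the test of the difference passed. The difference was −4.22 on the log2 scale (lung minus kidney, adjusted p = 0.000443). The value lay between −4.34 and −4.08 when each animal was left out in turn, and was −4.17 with the animal as a block. That test does not show a fall in lung. Within kidney GPRC5A rose by 3.60 (adjusted p = 1.36e-06). Within lung it stood at −0.67 (adjusted p = 0.0286). The lung call ended without CPB 2 (adjusted p = 0.0572) and without CPB 25 (0.0646). It also ended without both control 1 and CPB 25 (adjusted p = 0.0966).

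The effect of bypass on RTKN2 also differed between lung and kidney, by −1.87 (adjusted p = 0.0325). With the animal as a block it was −1.93 and passed. It did not pass with limma-voom (adjusted p = 0.0618) or without animal 1, 2, 7, 9, 10, 13, 19, 21, 25 or 26 (adjusted p up to 0.0882). RTKN2 was low in kidney, with a control mean of 0.788 ± 0.416 CPM.

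No lung stood far enough from the other lungs of its arm to be marked, in 24 groups of 4 to 8 values. With groups this small, this does not show that no lung stood apart. The lungs named above for their principal components or most abundant genes still change some calls.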

How the results depend on the processing

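Of the members' values in lung and between control organs, 718 of 760 recomputed values kept their direction and side of the threshold, and all 34 reversals were of values that had not passed. With limma-voom AGER stood at −0.008 (CPB against control), 0.001 (linrodostat against control) and 0.01 (linrodostat against CPB), and EMP2 in linrodostat against control at −0.002 without control 15 and CPB 19 together, and PDPN in linrodostat against CPB at −0.016 without control 1 and CPB 25 together. With animals left out in turn, the values ran for AGER from −0.056 to 0.076, −0.087 to 0.051 and −0.094 to 0.047 in the same order, for AQP5 from −0.027 to 0.128 and EMP2 from −0.133 to 0.031 (CPB against control), for EMP2 from −0.056 to 0.166 and CLIC5 from −0.129 to 0.032 (linrodostat against control), and for PDPN from −0.167 to 0.171 (linrodostat against CPB). RTKN2 in CPB against control stayed between −1.38 and −1.09 and passed in all alternatives but the one without control 1 and CPB 25. The members past the threshold in CPB against control numbered 2, 4 with DESeq2, 1 without control 15 and CPB 19 together, 0 without control 1 and CPB 25 together, and 1 to 3 with animals left out. GPRC5A in ileum (CPB against control) was −0.233 with DESeq2 and ran from −0.225 to 2.55 with animals left out. The genes past the threshold numbered 840 in CPB against control, 1722 with DESeq2, 385 without control 15 and CPB 19 together, 189 without control 1 and CPB 25 together, and 322 to 1336 with animals left out; control 1, 7, 10 and 26 and CPB 2, 6, 11, 19 and 25 each moved it by over 1.5 times. In linrodostat against control they numbered 419, 1111 with DESeq2, 278 with no filter, 232 without control 1 and CPB 25 together and 86 to 536 with animals left out (control 1, 7 and 26 and linrodostat 12, 20 and 24 by over 1.5 times), and in linrodostat against CPB 0, and 3 with DESeq2. The cause was not tested. In control lung against other control organs, the animal as a replicate block gave 11907 genes against 11484 and changed no member's call. Counting error is small for members in lung (at least 668 counts), so the number of animals limits precision, and levels elsewhere near 0 give imprecise fold changes.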

Other observations

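All 8 members were also fitted by sex, a split made after the data were seen, and none differed between the sexes past the threshold. CLIC5 and RTKN2 are described because they had the smallest unadjusted p for a difference between the sexes in the CPB effect. The rest had an unadjusted p from 0.26 (CAV1) to 0.996 (EMP2) in that test. In control lungs CLIC5 averaged 297 CPM in 4 males (241 to 326) and 212 CPM in 4 females (196 to 223), a difference of 0.49 ± 0.12 (male minus female, adjusted p = 0.782 by edgeR). Male and female control ranges separated in 2.97% of the 17849 genes tested, and 0.0896% passed that test. In CPB lungs CLIC5 averaged 186 CPM in 4 males and 208 CPM in 3 females. Against controls of the same sex, CLIC5 stood at −0.68 ± 0.12 in males (adjusted p = 0.0221) and −0.02 ± 0.13 in females (adjusted p = 0.987), and RTKN2 at −1.81 ± 0.31 (adjusted p = 0.018) and −0.56 ± 0.33 (adjusted p = 0.747). Over all genes 0.818% passed in males and 0 genes in females, where 1289 had an unadjusted p under 0.05. Control 1 and CPB 25, the lungs dominated by few genes, were both male, and the values by sex were not computed without them. The difference between the sexes in the CPB effect was −0.65 ± 0.18 for CLIC5 (unadjusted p = 0.00204, adjusted p = 1) and −1.26 ± 0.44 for RTKN2 (unadjusted p = 0.0108, adjusted p = 1), and 0 of the 17849 genes passed this test, with 574 at an unadjusted p under 0.05.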
